A study of Homo sapiens with 24 samples.

Results

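The miR-99, miR-100 and miR-125 families were described through 10 mature products in SBC-3, an established line of human small cell lung cancer. In the tables' identifiers these are miR-99a-5p (MIMAT0000097), miR-99a-3p (MIMAT0004511), miR-100-5p (MIMAT0000098), miR-99b-5p (MIMAT0000689), miR-99b-3p (MIMAT0004678), miR-125a-5p (MIMAT0000443), miR-125a-3p (MIMAT0004602), miR-125b-5p (MIMAT0000423), miR-125b-1-3p (MIMAT0004592) and miR-125b-2-3p (MIMAT0004603). They were taken by name from the 2652 mature miRNAs of the count tables, and where a product had several genomic copies the copy with the largest total was kept. Each of the 8 groups had 3 small RNA libraries, made 72 h after reverse transfection at 10 nM. The reagents were small interfering RNAs (siRNAs: siCtrl as control, siSFPQ-2, siSFPQ-3, siNONO-3, siNONO-4) or antisense oligonucleotides (ASOs: ASO-Ctrl as control, ASO-NEAT1-1047, ASO-NEAT1-1473), 2 for each target. All groups were the same line, labelled WT in genotype, and differed in the labels only by the reagent. SFPQ and NONO are nuclear RNA-binding proteins that partner each other, and NEAT1 is the long noncoding RNA on which paraspeckles, the nuclear bodies that hold both proteins, assemble. The series set out to compare the 3 losses for their effect on miRNAs. The tables count small RNA only, so the knockdown of the targets could not be checked here.

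A miRNA hairpin is cut from a long primary transcript by Drosha and then by Dicer, and either arm of the hairpin, 5p or 3p, can be loaded into Argonaute. The loaded strand finds target messages mainly through its seed, bases 2 to 8 from the 5′ end. The miR-99/100 and miR-125 families are encoded beside a let-7 gene in clusters that arose by duplication. miR-99 and miR-100 are known for repressing MTOR and the chromatin remodeller SMARCA5, while miR-125b, a relative of the worm's lin-4, is known for its oncogenic activity in blood.

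The sequences show which members can be told apart by sequencing and which could act on the same targets. All 10 were found in RefSeq (GRCh38.p14). They are written 5′ to 3′ with the seed in capitals.

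miR-99a-5p: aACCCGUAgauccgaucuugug

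miR-100-5p: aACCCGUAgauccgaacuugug

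miR-99b-5p: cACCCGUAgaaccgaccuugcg

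miR-125a-5p: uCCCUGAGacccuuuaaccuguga

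miR-125b-5p: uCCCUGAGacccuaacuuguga

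miR-99a-3p: cAAGCUCGcuucuaugggucug

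miR-99b-3p: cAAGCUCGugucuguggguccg

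miR-125a-3p: aCAGGUGAgguucuugggagcc

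miR-125b-1-3p: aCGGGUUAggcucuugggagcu

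miR-125b-2-3p: uCACAAGUcaggcucuugggac

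The 5p arms of miR-99a, miR-100 and miR-99b carried 1 seed, ACCCGUA, which no other RefSeq mature sequence held. The 5p arms of miR-125a and miR-125b carried CCCUGAG, which miR-4319 also holds. miR-99a-3p and miR-99b-3p shared the seed AAGCUCG, and each of the 3 miR-125 3p arms had a seed of its own. miR-99a-5p and miR-100-5p matched in 21 of 22 bases. Counted from 1 at the 5′ end of miR-99a-5p, their single difference was U16A. miR-99b-5p differed from miR-99a-5p at 4 bases, A1C, U11A, U16C and U21C.

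The members lie in 3 clusters, given here on hg38 as in the tables. The miR-99a, let-7c and miR-125b-2 cluster runs along the plus strand of chromosome 21 from 16539101 to 16590311, in introns of the noncoding host gene MIR99AHG. The miR-100, let-7a-2 and miR-125b-1 cluster runs along the minus strand of chromosome 11 from 122099769 to 122152296, in introns of the noncoding host gene MIR100HG. The chromosome 19 cluster, miR-99b, let-7e and miR-125a, is far more compact: it spans 710 bases on the plus strand, 51692618 to 51693327, against 51211 and 52528 bases for the other two. GENCODE v29 places it in an intron of SPACA6 on the same strand. On the opposite strand SPACA6P-AS covers it with an exon, except at miR-99b-5p, which falls in its intron. Because the arms of the chromosome 19 hairpins give the readouts that can be assigned to a single locus, both hairpins are shown with their 5p and 3p products in capitals (RefSeq, GRCh38.p14, plus strand, chr19:51692612-51692681 and chr19:51693254-51693339).

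MIR99B: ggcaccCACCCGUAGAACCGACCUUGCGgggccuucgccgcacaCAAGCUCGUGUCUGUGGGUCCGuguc

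MIR125A: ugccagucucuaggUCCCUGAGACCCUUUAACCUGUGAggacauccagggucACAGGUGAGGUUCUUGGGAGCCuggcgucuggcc

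The counts did not separate the chromosome 11 and chromosome 21 clusters at their 5p arms. miR-99a-5p counts differed from those of miR-100-5p by at most 14 in any library, and by at most 0.496%. They are therefore 1 measurement, called miR-99a/100-5p below. The chromosome 11 and chromosome 21 copies of miR-125b-5p had equal counts in 19 of 24 libraries and differed by at most 2 in the rest. The 3p arms do differ between these loci. miR-99a-3p had 1753 counts over the 24 libraries and miR-100-3p, its counterpart on chromosome 11, had 106. miR-125b-2-3p, of chromosome 21, had 2554 counts and miR-125b-1-3p, of chromosome 11, had 51, between 0 and 7 per library. In both pairs the chromosome 21 arm was the more abundant, which does not divide the 5p reads between the loci. miR-125b-1-3p was too low to test, so 9 of the 10 members were tested. On chromosome 19, miR-99b-5p and miR-125a-5p had counts of their own.

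Levels are given as CPM, the count rescaled to a common library total after edgeR's trimmed mean of M values (TMM) had set the library sizes, and fold changes as log2. Libraries held 2038382 to 4279644 miRNA counts, of which the rows of the 10 members took 11962 to 45455. Reads shared by miR-99a-5p and miR-100-5p are counted under both names in these figures. Other shared reads, such as those of the let-7 5p arms, are likewise counted under each name in the library totals. The 3 siCtrl libraries did not form a tight group. On the second principal component of all tested miRNAs, siCtrl replicate 1 lay at 11.74 and replicates 2 and 3 at -8.18 and -7.74. Its miR-99a-5p level was 4.08 times the mean of the other siCtrl libraries and its miR-125b-2-3p level 4.59 times. Fold changes of the members with SFPQ knockdown against siCtrl are therefore given with and without it. Those of single siRNAs and of miRNAs outside the members are given only with it. SFPQ and NONO knockdown share this control. Of the markers of neuroendocrine and neural cells, miR-9-5p and miR-7-5p averaged 84040 and 12550 CPM, but miR-375-3p only 2.32. Summed, the 3 were at 98800 to 112800 CPM in siCtrl and 58210 to 79160 in the siSFPQ libraries, nearly all of it from miR-9-5p and miR-7-5p. miR-375-3p moved the other way, with means of 0.669 CPM in siCtrl, 4.92 CPM for siSFPQ-2 and 6.33 CPM for siSFPQ-3 (log2 fold change 2.99, adjusted p = 0.00052, on 5 counts in all of siCtrl). Among 10 markers of blood, muscle, liver, stroma and vessel, 3 were absent or nearly so. miR-122-5p of liver was at 0 in all libraries, and miR-451a and miR-223-3p of blood had at most 3 and 2 counts. The others were found in all 24 libraries. miR-126-3p averaged 920.1 CPM, miR-1-3p 308.1, miR-143-3p 189.3, miR-142-3p 72.4 and miR-133a-3p 54.9, with miR-206 at 5.72 and miR-145-5p at 4.69. The summed level of the 10 was 1372 to 1408 CPM in siCtrl, 801.8 to 1024 in the siSFPQ libraries and 1367 to 2482 in the other groups. The part of these other miRNAs in the results was not tested, and in bulk RNA fewer cells of a type and less RNA per cell cannot be told apart. No label says that replicates came from separate cultures, so p-values measure only the spread between these libraries.

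With SFPQ knockdown miR-99a/100-5p fell and miR-125a-3p rose against siCtrl, while the 5p arms of miR-99b, miR-125a and miR-125b did not pass the test. The call of miR-99a/100-5p needed siCtrl replicate 1, and that of miR-125a-3p did not. A miRNA was called at an adjusted p under 0.05 (edgeR's quasi-likelihood test, Benjamini-Hochberg over 626 tested miRNAs). Of the 9 tested members, 3 were called, miR-99a-5p, miR-100-5p and miR-125a-3p, the first pair being the same reads. This knockdown moved much of the miRNA population: 302 of the 626 tested miRNAs, or 48.2%, were called, 25.6% higher and 22.7% lower. The members' median log2 fold change was -0.10, beside 0.02 over all tested miRNAs. The share of members called was thus below that of all miRNAs.

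miR-99a-5p was at 2317, 547.0 and 587.9 CPM in siCtrl replicates 1 to 3. It was at 425.8, 469.6 and 591.1 CPM with siSFPQ-2 and at 417.4, 479.2 and 451.8 CPM with siSFPQ-3. Thus 5 of the 6 siSFPQ libraries were below every siCtrl library, but siCtrl replicates 2 and 3 were much nearer to them than to replicate 1. The log2 fold change of miR-99a-5p was -1.29 ± 0.30 (SE; adjusted p = 0.0013), with -1.22 for siSFPQ-2 (adjusted p = 0.012) and -1.36 for siSFPQ-3 (adjusted p = 0.0047). Without siCtrl replicate 1 the log2 fold change was -0.30 and the call was lost (adjusted p = 0.189).

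The other groups place these levels. In the 15 libraries of the NONO, ASO-Ctrl and NEAT1 groups, miR-99a-5p ran from 728.8 to 1386 CPM with a median of 806.2, against 417.4 to 591.1 in the siSFPQ libraries. All 6 siSFPQ libraries were therefore below all 15, and siCtrl replicates 2 and 3 were below them too. On library totals in place of TMM the separation held, with 465.8 to 659.2 CPM in the siSFPQ libraries and 686.2 to 1182 in the 15, but then only 1 of the 6 was below every siCtrl library. This range was taken after the spread of siCtrl had been seen and is a description. How many of all 626 tested miRNAs set the siSFPQ libraries apart, here and in the paragraphs below, was not counted. With SFPQ knockdown 48.2% of them were called.

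miR-99a-3p, the arm that belongs to chromosome 21 alone, was low in the same libraries. It was at 24.4, 19.6 and 18.2 CPM in siCtrl, at 15.4, 18.0 and 17.6 CPM with siSFPQ-2 and at 12.2, 16.2 and 12.4 CPM with siSFPQ-3. All 6 siSFPQ libraries were below all 3 siCtrl libraries and below the other 15, which ran from 18.3 to 35.2 CPM, though the nearest values almost touch. The log2 fold change against siCtrl, -0.45 ± 0.19 (SE), narrowly missed the threshold (adjusted p = 0.055), and was -0.35 without siCtrl replicate 1 (adjusted p = 0.158). siSFPQ-3 alone passed, at -0.61 (adjusted p = 0.030, where 44.4% of all miRNAs were called), and siSFPQ-2 did not, at -0.29 (adjusted p = 0.32). These levels rest on 48 to 74 counts per siSFPQ library. On library totals the log2 fold change was 0.00 (adjusted p = 0.99) and the separation was lost: 1 of the 6 siSFPQ libraries was below every siCtrl library, 1 was above every one, and 3 were below the other 15.

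let-7c-3p, the passenger arm of the let-7c hairpin in the same cluster, was too low to test. It had 7, 9 and 5 counts in siCtrl, 2, 0 and 1 with siSFPQ-2 and 5, 4 and 3 with siSFPQ-3. In CPM all 6 siSFPQ libraries, at 0 to 1.13, were below the siCtrl libraries, at 2.62 to 2.99, and below the other 15, at 1.25 to 4.95. On library totals all 6 were still below the siCtrl libraries, and 5 were below the other 15. Counts this small carry a large counting error.

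The miR-125b members of these clusters did not pass. miR-125b-5p was at 2174, 1474 and 1656 CPM in siCtrl, at 1452, 1884 and 2318 CPM with siSFPQ-2 and at 1125, 1454 and 1779 CPM with siSFPQ-3. The groups overlapped, and the log2 fold change was -0.10 ± 0.17 (SE; adjusted p = 0.68), or 0.05 without siCtrl replicate 1 (adjusted p = 0.848). miR-125b-2-3p was at 82.1, 14.3 and 21.5 CPM in siCtrl and between 18.6 and 52.3 in the siSFPQ libraries. With siCtrl replicate 1 so far from the others, its log2 fold change of -0.41 had an SE of 0.44 (adjusted p = 0.46), and it turned to 0.72 without that library (adjusted p = 0.17). miR-125b-1-3p had 6, 1 and 1 counts in siCtrl and 0 to 5 in the siSFPQ libraries.

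**Figure D1:**
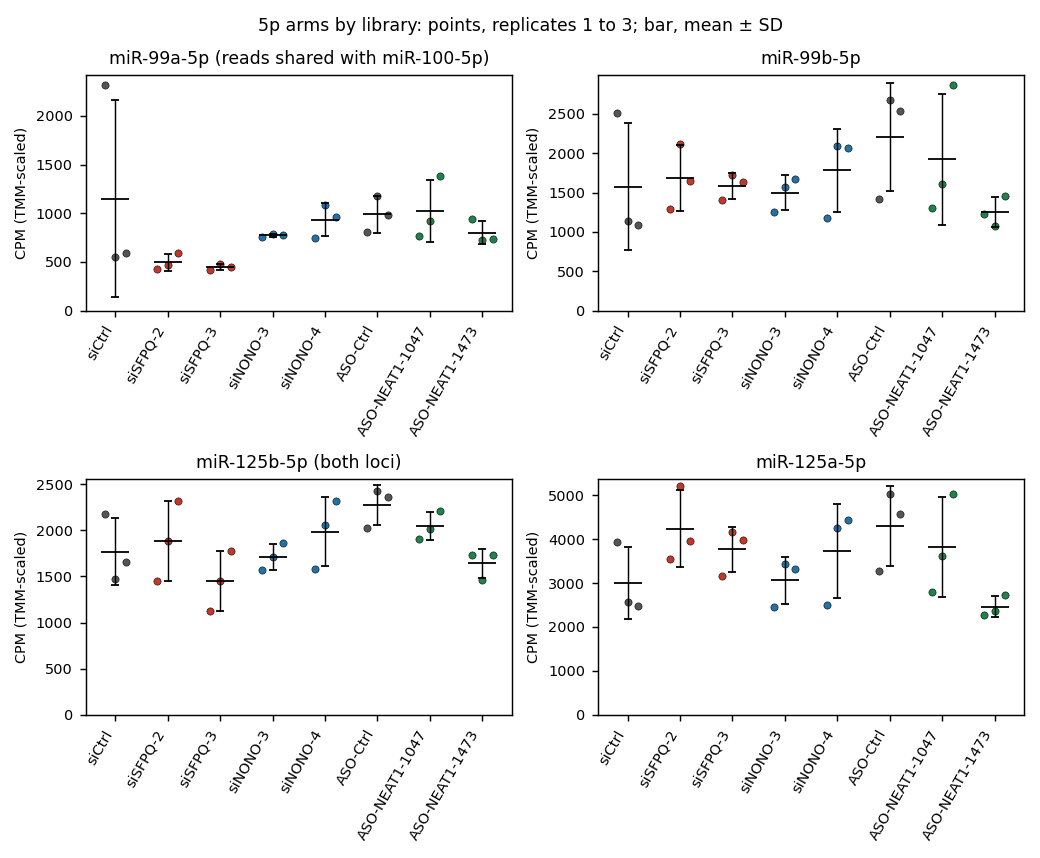
Levels of the 5p arms in CPM (TMM-scaled, axes from 0) for the 8 groups on the horizontal axis; points are replicates 1 to 3 from left to right and bars are the mean ± SD. For miR-99a-5p the 6 siSFPQ libraries sit at 417.4 to 591.1, with siCtrl replicate 1 alone at 2317, whereas the groups of miR-99b-5p overlap.

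In the compact cluster on chromosome 19, neither arm of miR-99b passed the test with SFPQ knockdown. miR-99b-5p was at 2511, 1133 and 1084 CPM in siCtrl, at 1291, 2117 and 1641 CPM with siSFPQ-2 and at 1403, 1717 and 1637 CPM with siSFPQ-3. The siSFPQ libraries lay within the siCtrl range, and the log2 fold change was 0.05 ± 0.28 (SE; adjusted p = 0.90). For miR-99b-3p it was -0.01 (adjusted p = 0.98). Without siCtrl replicate 1 that of miR-99b-5p was 0.52 (adjusted p = 0.0985) and that of miR-99b-3p 0.18 (adjusted p = 0.616).

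miR-125a-5p, the member with the most counts, was at 3942, 2574 and 2487 CPM in siCtrl, at 3552, 5219 and 3949 CPM with siSFPQ-2 and at 3170, 4150 and 3971 CPM with siSFPQ-3. Of the 6 siSFPQ libraries 4 were above every siCtrl library. The log2 fold change of 0.41 ± 0.22 (SE) did not pass (adjusted p = 0.13). It passed at 0.62 without siCtrl replicate 1 (adjusted p = 0.0235), at 0.88 on library totals (adjusted p = 0.00118) and at 0.60 on spike-in totals (adjusted p = 0.0271). These 2 scalings also moved the median of all tested miRNAs, from 0.02 to 0.47 on library totals and to 0.21 on spike-in totals.

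miR-125a-3p, the minor arm of the same hairpin, had the highest log2 fold change of the members. It was at 18.0, 14.3 and 9.36 CPM in siCtrl, at 19.3, 31.9 and 28.2 CPM with siSFPQ-2 and at 22.2, 26.1 and 22.8 CPM with siSFPQ-3. All 6 siSFPQ libraries were above all siCtrl libraries, and 4 of the 6 were above the other 15, which ran from 9.61 to 22.4. The share of all 626 tested miRNAs with such a separation was not counted, and 25.6% were called higher. The log2 fold change was 0.83 ± 0.24 (SE; adjusted p = 0.0067), with 0.91 for siSFPQ-2 (adjusted p = 0.011, where 38.7% of all miRNAs were called) and 0.75 for siSFPQ-3 (adjusted p = 0.026). It was called without each siCtrl library in turn, at 1.02 without replicate 1 (adjusted p = 0.00225) and barely so without replicate 3 (0.60, adjusted p = 0.0498). The siCtrl values rest on 17 to 48 counts.

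**Figure D2:**
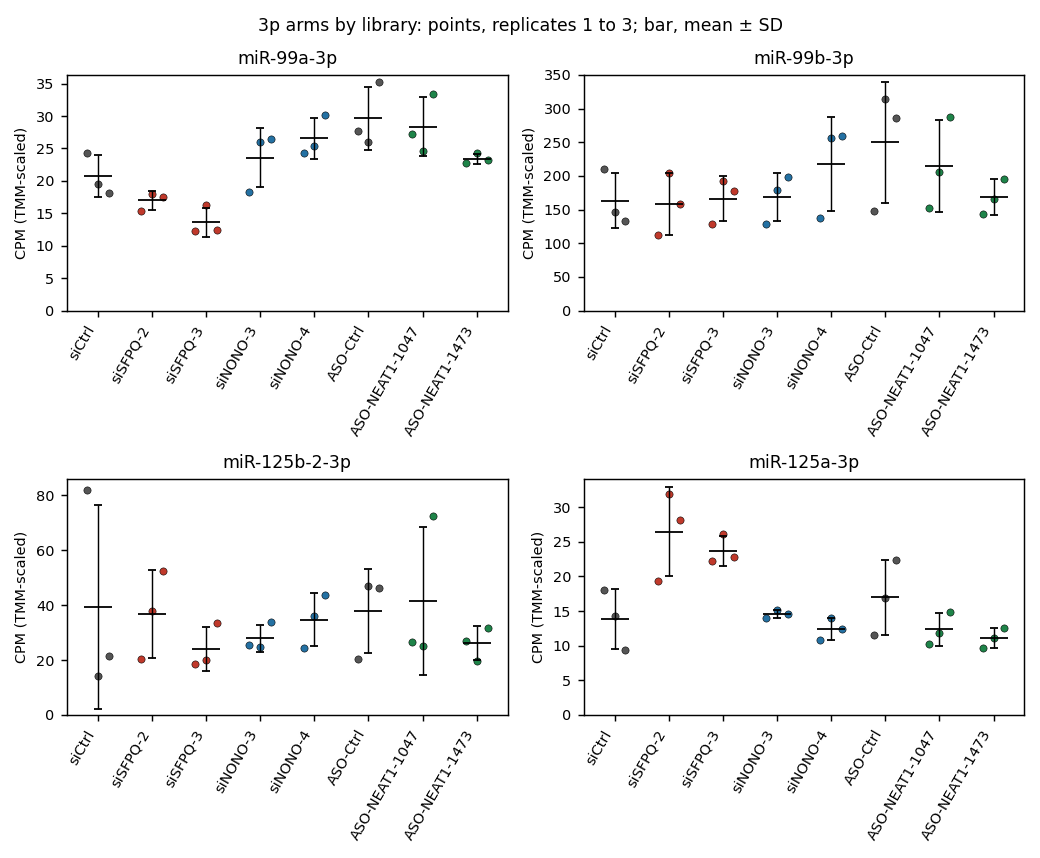
Levels of the 3p arms in CPM (TMM-scaled, axes from 0) in the 8 groups; points are replicates 1 to 3 and bars are the mean ± SD. miR-99a-3p is lowest and miR-125a-3p highest in the siSFPQ groups, at 12.2 to 18.0 and 19.3 to 31.9 CPM.

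Ratios of members in the same library do not depend on how libraries are scaled. For each target, 8 ratios were compared as log2 with an exact two-sided permutation test of 6 knockdown against 3 control libraries, whose smallest possible p is 0.0238. After adjustment over the 24 tests none passed. With so high a floor no ratio could pass unless many of the 24 reached it or came near. This outcome therefore does not speak against a shift. The log2 ratio of miR-100-5p to miR-99b-5p, members with the same seed, was -0.12, -1.05 and -0.89 in siCtrl, -1.61, -2.18 and -1.48 with siSFPQ-2 and -1.75, -1.84 and -1.86 with siSFPQ-3. All 6 siSFPQ libraries were below all siCtrl libraries and the mean difference was -1.10, which gave the smallest possible exact p (0.0238, adjusted p = 0.429). Without siCtrl replicate 1 the difference was -0.82. Expressed as a share, miR-99b-5p made up 61.4% ± 8.26 (SD, n = 3) of the ACCCGUA reads in siCtrl, 76.9% ± 4.40 with siSFPQ-2 and 77.9% ± 0.704 with siSFPQ-3. In the other 5 groups the mean share lay between 60.9% and 68.4%. Each siSFPQ library, at 73.5% or more, was above every other library, at 72.1% or less, so the chromosome 19 member made up more of this seed's reads there.

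Within the CCCUGAG seed, miR-125a-5p made up 62.7% ± 2.34 (SD, n = 3) of the reads in siCtrl, 69.2% ± 5.47 with siSFPQ-2 and 72.3% ± 2.81 with siSFPQ-3. The log2 ratio of miR-125b-5p to miR-125a-5p was lower than in every siCtrl library in 5 of 6 siSFPQ libraries (mean difference -0.53, exact permutation p = 0.0714, adjusted p = 0.429). For the arms of the miR-125a hairpin, the 3p arm held 0.460% ± 0.0886 of the counts in siCtrl, 0.619% ± 0.0845 with siSFPQ-2 and 0.630% ± 0.0626 with siSFPQ-3. The log2 ratio of 3p to 5p was higher by 0.44 (exact permutation p = 0.0476, adjusted p = 0.429), and 5 of 6 siSFPQ libraries were above every siCtrl library. The miR-99b hairpin gave a difference of -0.16 between its arms (exact permutation p = 0.310, adjusted p = 0.703).

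**Figure D3:**
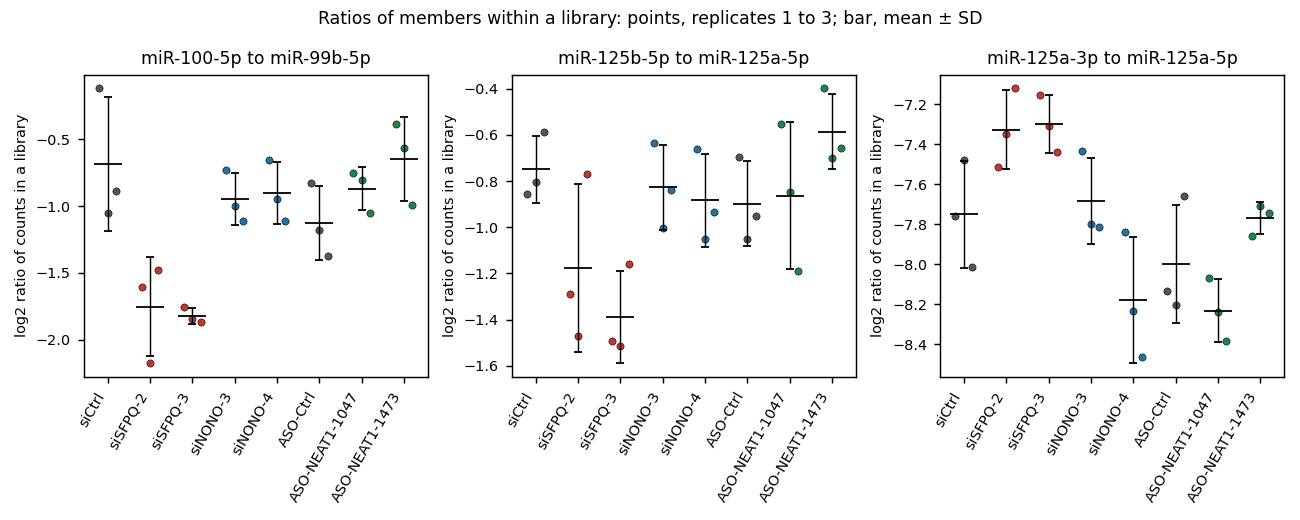
The log2 ratio of 2 members' counts within a library for the 8 groups; points are replicates 1 to 3 and bars are the mean ± SD. For miR-100-5p to miR-99b-5p the siSFPQ libraries lie between -2.18 and -1.48, below all other libraries.

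NONO knockdown left all 9 tested members uncalled. In edgeR 0 had an unadjusted p under 0.05, DESeq2 also called 0, and over all miRNAs 1.60% were called. miR-99a-5p was at 757.0, 784.6 and 779.4 CPM with siNONO-3 and at 751.0, 1088 and 961.4 CPM with siNONO-4, within the wide range of siCtrl. The log2 fold change of miR-100-5p was -0.44 (adjusted p = 0.64) and turned to 0.52 without siCtrl replicate 1 (adjusted p = 0.139), so its direction against siCtrl was set by that library. miR-99a-3p was at 18.3 to 26.4 CPM with siNONO-3 and 24.2 to 30.1 CPM with siNONO-4, and miR-125a-3p at 14.0 to 15.1 and 10.8 to 14.0 CPM.

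The difference between the 2 protein knockdowns was tested directly, which leaves out siCtrl. It called 4 of the 9 members, where 56.5% of all miRNAs were called. The log2 difference, SFPQ minus NONO, was -0.85 ± 0.26 (SE; adjusted p = 0.0067) for miR-99a-5p and -0.85 for miR-100-5p, the same reads. miR-99a-3p, on chromosome 21, was also lower with SFPQ knockdown, at -0.71 ± 0.15 (adjusted p = 0.00042). miR-125a-3p was higher, at 0.89 ± 0.19 (adjusted p = 0.00029), while miR-125a-5p, at 0.24, did not pass (adjusted p = 0.26). For miR-99b-5p the difference was 0.00 ± 0.23 (adjusted p = 1.00). On library totals the miR-100-5p difference was -0.51 and not called (adjusted p = 0.0727), that of miR-99a-3p was -0.37 (adjusted p = 0.0389) and that of miR-125a-5p was called at 0.60 (adjusted p = 0.00336). With that scaling the median difference of all tested miRNAs was 0.33.

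The ratios were also set against the 6 siNONO libraries, a comparison added after the siCtrl spread was seen, with 8 exact two-sided permutation tests whose smallest possible p is 0.00216. Of these, 5 passed after adjustment. The log2 ratio of miR-100-5p to miR-99b-5p was lower in 6 of 6 siSFPQ libraries than in all siNONO libraries (difference -0.86, exact permutation, adjusted p = 0.00866), and that of miR-125a-5p to miR-99b-5p, neighbours on chromosome 19, was higher in 6 of 6 (0.24, adjusted p = 0.00866 by the same exact test). The ratio of miR-125a-3p to miR-125a-5p differed by 0.62 (exact permutation, adjusted p = 0.0173), of miR-99b-3p to miR-99b-5p by -0.24 (adjusted p = 0.026) and of miR-125b-5p to miR-125a-5p by -0.43 (adjusted p = 0.0277). The arms of miR-99a, at 0.14, kept no clear difference (exact permutation, adjusted p = 0.39).

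**Figure D4:**
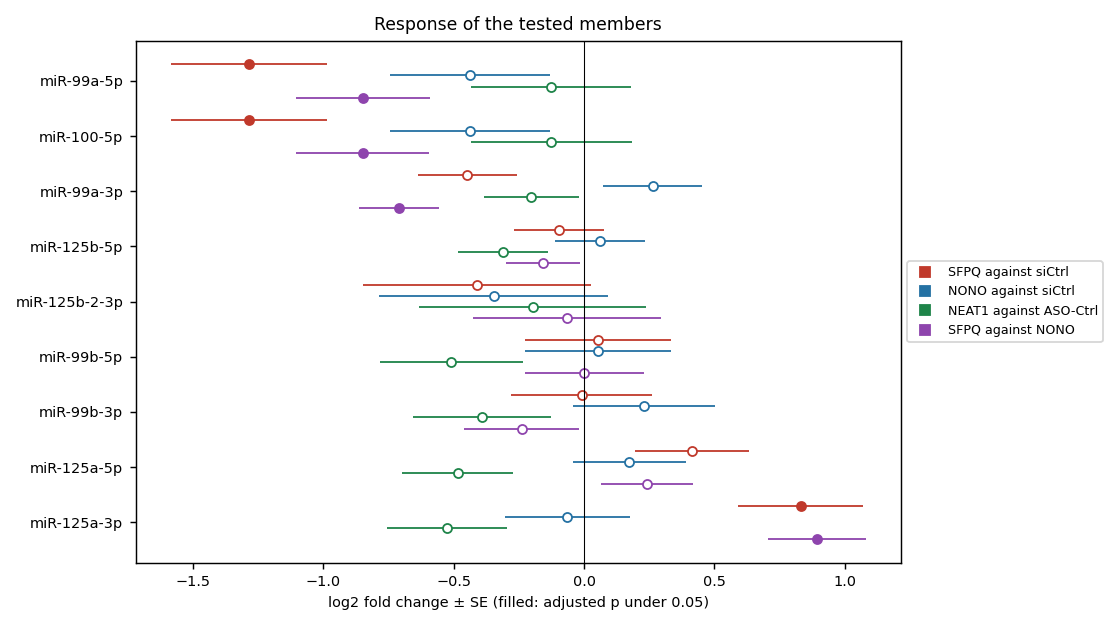
Log2 fold changes ± SE of the 9 tested members for the 3 knockdowns against their controls and for SFPQ against NONO knockdown; filled points have an adjusted p under 0.05. miR-99a-5p and miR-100-5p lie at -1.29 against siCtrl and at -0.85 against NONO knockdown, and miR-125a-3p at 0.83 and 0.89.

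NEAT1 knockdown called none of the 9 members and none of all 626 miRNAs (0%). In edgeR 2 members and 19 of all miRNAs had an unadjusted p under 0.05, and DESeq2 called 0 of both. All 9 tested members, 2 of them the same reads, had log2 fold changes below 0. They ran from -0.53 for miR-125a-3p, -0.51 for miR-99b-5p and -0.49 for miR-125a-5p to -0.13 for miR-99a-5p (adjusted p = 0.91 to 0.92). Their median was -0.31, beside -0.04 over all tested miRNAs, whose share below 0 was not counted. By reagent the members' median was -0.53 for ASO-NEAT1-1473 and -0.15 for ASO-NEAT1-1047. miR-125a-5p was at 3278, 5035 and 4567 CPM in ASO-Ctrl, at 2798, 3622 and 5037 CPM with ASO-NEAT1-1047 and at 2281, 2373 and 2733 CPM with ASO-NEAT1-1473. Only ASO-NEAT1-1473 lay below all ASO-Ctrl libraries, at -0.80 (adjusted p = 0.40), and ASO-NEAT1-1047 overlapped them, at -0.17 (adjusted p = 1.00). The controls themselves differed in 0 of 9 members, with 2 at an unadjusted p under 0.05 in edgeR and 0 called by DESeq2, where 0.479% of all miRNAs were called.

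The effect of SFPQ knockdown on its control was set against that of NEAT1 knockdown on its own. The difference was called for 2 members, where 23.5% of all miRNAs were called: miR-125a-3p at 1.36 ± 0.33 (log2, SE; adjusted p = 0.0039) and miR-125a-5p at 0.90 ± 0.31 (adjusted p = 0.035). For miR-99a-5p it was -1.16 (adjusted p = 0.058), and for miR-100-5p it was -0.18 without siCtrl replicate 1. The miR-125a-5p call was lost without siCtrl replicate 2 (0.80, adjusted p = 0.0637) or 3 (0.75, adjusted p = 0.0908), without siSFPQ-2 replicate 2 (0.81, adjusted p = 0.0553), and without ASO-Ctrl replicate 2 (0.77, adjusted p = 0.0791) or 3 (0.85, adjusted p = 0.0558).

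**Figure D5:**
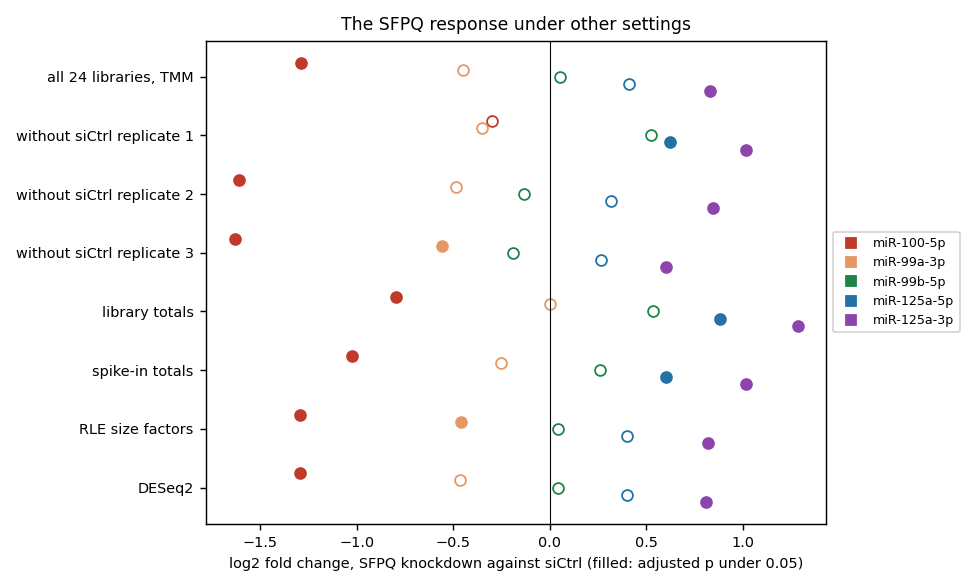
Log2 fold changes of 5 members with SFPQ knockdown against siCtrl under other settings, one setting per row; filled points have an adjusted p under 0.05. miR-100-5p moves from -1.29 to -0.30 without siCtrl replicate 1, while miR-125a-3p stays called in each row, from 0.60 to 1.29.

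Ordered by mean level over the 8 groups, both siSFPQ groups were the lowest for miR-99a-5p and for miR-99a-3p, and for both miRNAs the range of siSFPQ-2 did not overlap that of the next group up. No other neighbours in those orders were apart. For miR-99a-5p, siCtrl replicates 2 and 3, at 547.0 and 587.9 CPM, lay within the siSFPQ-2 range of 425.8 to 591.1. siCtrl had the highest mean there through replicate 1, at 2317 CPM. For miR-99a-3p on library totals, 3 of the 6 siSFPQ libraries were below all libraries of the NONO, ASO-Ctrl and NEAT1 groups. How many of all 626 tested miRNAs show such an order was not counted, and 48.2% were called with SFPQ knockdown. For miR-99b-5p and miR-99b-3p every neighbouring pair of groups overlapped.

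The let-7 genes of the clusters were counted as partners, 4 of 7 products passing the filter on low counts. With SFPQ knockdown, where 22.7% of all tested miRNAs were called lower, 3 of these 4 fell: let-7a-5p, let-7c-5p and let-7e-5p. Their log2 fold changes were -0.88, -0.88 and -0.87 (adjusted p = 0.0014, 0.0014 and 0.0015). Their near-equal counts, 1812555, 1776925 and 1757421 over the 24 libraries, show that they share reads, and let-7a is also encoded elsewhere, so they cannot be given to a cluster. For let-7a-5p in TMM-scaled CPM, 6 of 6 siSFPQ libraries were below every siCtrl library. There 5 were below the 15 libraries of the NONO, ASO-Ctrl and NEAT1 groups. On library totals these counts were 4 and 1. let-7e-3p, which lies between miR-99b and miR-125a, was at 0.15 (adjusted p = 0.81). NONO and NEAT1 knockdown called 0 of these 4, with 0 at an unadjusted p under 0.05 in edgeR.

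The miR-10 family is related in sequence to miR-99/100 and lies in the HOX clusters. miR-10a-5p and miR-10b-5p, whose counts were also near-equal, were at a log2 fold change of -0.30 with SFPQ knockdown (adjusted p = 0.21). In siCtrl replicate 1 miR-10a-5p was at 2.06 times the mean of the other siCtrl libraries. That mean, 23700 CPM, was below the siSFPQ-2 and siSFPQ-3 means of 27108 and 24989 CPM, a difference in the other direction. The minor arm miR-10b-3p rose by 1.36 ± 0.35 (SE; adjusted p = 0.0027), the only call among the 4 products. It was at 8.30 to 14.3 CPM in siCtrl and up to 39.9 CPM in the siSFPQ libraries, all 6 of which were above all other libraries. For how many of all 626 tested miRNAs this holds was not counted, and 25.6% were called higher.

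Over the 24 libraries, log2 levels of miR-99b-5p and miR-125a-5p, neighbours in the compact cluster, had a Pearson r of 0.901, miR-99b-5p and miR-99b-3p 0.878, and miR-99a-5p and miR-99a-3p 0.75. miR-125a-3p followed its own 5p arm with r = 0.65. These are descriptions, since the points share the library and the scaling. Over the 8 group means, the tested miRNAs most like miR-99b-5p were miR-1287-5p (r = 0.912), miR-484 (0.9) and miR-1271-5p (0.898), and those most like miR-125a-5p were miR-212-3p (0.91), miR-24-3p (0.861) and miR-1287-5p (0.843). miR-100-5p was most like miR-4454 (0.984), miR-26b-5p (0.979) and MIMAT0003338 (0.979), and miR-125b-5p most like miR-2277-5p (0.957), miR-183-5p (0.953) and miR-500a-3p (0.937).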

How the data were processed

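Small RNA of 24 libraries was made into libraries with a QIAseq kit from 100 ng of RNA with spike-in oligonucleotides, per the labels' protocols. Per the file headers, the authors counted reads with featureCounts, and the deposited counts are whole numbers for each of 2883 mature loci and 52 spike-ins. Subread 2.0.3, UMI-tools 1.1.1, Bowtie 1.3.0, Trimmomatic 0.39, DESeq2 1.38.1 and hg38 appear in the submitters' processing notes. Whether molecular identifiers were collapsed was not given in the sources used here. Names were taken from RefSeq by position on hg38 with a tolerance of 3 bases.

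The main test was that of edgeR 4.0.16 (R 4.3.3) on counts by mature miRNA: filterByExpr (minimum count 10) retained 626, TMM set library sizes, and 1 model with a term per group over 24 libraries (16 residual degrees of freedom) was given the quasi-likelihood test. A knockdown is the mean of its 2 reagents minus its control. SEs are log2 fold changes over the square root of F. Adjusted p-values of fold changes are edgeR's (Benjamini-Hochberg, 626 miRNAs). The test was checked on simulated counts. Ratios used counts plus 0.5 and exact permutation tests (scipy 1.17.1). All 10 members are named. The partner, miR-10 and marker lists are also named, and the 3 tested miRNAs with the highest Pearson r over the 8 group means to each of miR-99b-5p, miR-125a-5p, miR-125b-5p and miR-100-5p. The members and lists were chosen with earlier results of these data known. Alternatives were other scalings, filters, DESeq2 1.42.0, the compared groups alone, the sum over loci, a replicate block and leaving out each library.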

Additional observations from a re-analysis of the deposited data

Results flagged for a closer look

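The effects of SFPQ and NONO knockdown, which share siCtrl, differed for 4 of the 9 tested members by a test of the difference itself (edgeR's quasi-likelihood test). Of all tested miRNAs, 56.5% were called by it. On the log2 scale the SFPQ minus NONO difference was -0.85 for miR-99a-5p and -0.85 for miR-100-5p, which are the same reads, -0.71 for miR-99a-3p and 0.89 for miR-125a-3p. The effects of SFPQ and NEAT1 knockdown, each on its own control, differed by 0.90 for miR-125a-5p and by 1.36 for miR-125a-3p, where 23.5% of all miRNAs were called. On library totals miR-99a-5p and miR-100-5p were not called for SFPQ against NONO. The miR-125a-5p call against the NEAT1 effect was lost when some single libraries were left out.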

How the results depend on the processing

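Members called in the main model kept their sign in 192 of 192 combinations of member, comparison and setting and their call in 183. Members not called changed sign without being called in 83 of 861 and were called in 30. The 3 calls with SFPQ knockdown included miR-99a-5p and miR-100-5p except without siCtrl replicate 1. The 2 members called for the SFPQ against the NEAT1 effect became 4 with DESeq2, with no filter or one at a mean of 10 CPM, and with RLE or library-total scaling, and 1 to 4 without single libraries. Library totals added miR-125b-5p and miR-99b-5p, while DESeq2, RLE and the other filters added miR-99a-5p and miR-100-5p, the same reads. With library totals the median of this difference over all tested miRNAs was 0.49. Leaving out siCtrl replicate 1 added miR-99b-5p. Leaving out siSFPQ-2 replicate 2 or ASO-Ctrl replicate 2 or 3 left only miR-125a-3p called. The cause was not tested. The number of ratios that passed went from 0 to 5 with siNONO libraries in place of siCtrl, where the smallest possible p is lower. miR-99a-3p with SFPQ knockdown was called with the replicate number as a block (-0.46, adjusted p = 0.0439), with RLE (adjusted p = 0.0397), at a mean of 10 CPM (0.0467), and without siCtrl replicate 3 (0.0339), siSFPQ-2 replicate 2 (0.0494) or siSFPQ-3 replicate 2 (0.0213). The labels do not say that numbers pair the libraries, and same-numbered libraries correlated from -0.288 to 0.619. Library totals moved the median SFPQ log2 fold change of all miRNAs from 0.02 to 0.47 and its calls from 160 higher and 142 lower to 252 and 67; spike-in totals gave 0.21, 182 and 90. NONO calls over all miRNAs, 6 higher and 4 lower, ran from 3 and 0 with the compared groups alone to 12 and 12 with the block. Counts of 17 to 119 for miR-125a-3p limit its precision. Intervals of the siCtrl comparisons rest on 3 libraries, 1 of which stood apart.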
